A study of Mus musculus with 4 samples.

Results

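HOX genes encode homeodomain transcription factors that give cells along the body axis their positional identity. In mammals they lie in 4 clusters, named A to D, and the members of equal number in different clusters, called a paralog group, descend from 1 ancestral gene. Along a cluster the low-numbered genes act towards the head and the high-numbered ones towards the tail, and adult mesenchymal and epithelial cells keep much of the pattern of the level at which they arose. The bladder forms at the caudal end of the trunk, and in mouse embryos Hoxa13 and Hoxd13 act in the hindgut and urogenital sinus, while Hoxb13 is best known from the prostate, colon and tail. The family was taken as every gene whose platform symbol is Hox followed by a cluster letter and a number, read at its brightest probe. This gave 36 genes, measured by 47 probes, among 15366 named genes on the array. RefSeq lists 39 such genes in mouse, and the other 3 were not analysed here.

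The arrays carried RNA of bladders of male mice on a normal diet. A pair of arrays came from sham-operated animals, and another pair from animals whose bladder outlet had been partially obstructed for 14 days, so that urine left it through a narrowed passage. The labels do not give strain or age, nor whether an array stands for 1 mouse or several. The p-values therefore rest on the spread of these 4 arrays, part or all of which may be technical. The samples are labelled as bladder with no layer named, and both smooth muscle and urothelial markers were bright, Myh11 at 12.76 to 14.69 and Upk2 at 13.82 to 14.11 on the log2 scale. RNA of male accessory glands, the seminal vesicle and prostate, set the arrays apart. Of 16 such marker genes 14 were measured, and all 14 had a higher mean in obstructed bladders. Their median log2 value was 5.49 in sham replicate 1, 5.46 in sham replicate 2, 8.10 in obstructed replicate 1 and 14.39 in obstructed replicate 2. In obstructed replicate 2 none of the 14 lay below 10.05, and in each of the other 3 arrays some lay at background, with lowest values of 4.86, 5.01 and 5.29. The part of these glands in the results that follow was not tested. In bulk RNA, fewer cells of a type and less RNA per cell cannot be told apart.

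To say which HOX genes were measured above background, each was set against 1094 olfactory and vomeronasal receptor genes. These are genes of sensory neurons, and they were taken as unused in bladder, which was not tested. The 95th percentile of these genes was 6.24 and 6.19 in sham replicates 1 and 2, and 6.25 and 6.26 in obstructed replicates 1 and 2. A HOX gene counted as above background in sham when it exceeded that level in both sham arrays. By this measure 15 of the 36 HOX genes, 41.7%, were above background in sham bladders, compared with 54.8% of all named genes. A further 3, Hoxb6, Hoxb13 and Hoxc10, were above it on at least 1 array, and 18 were at or below it on all 4. Brightness depends on the probe as well as on the RNA, so values are compared between arrays and not between genes. A gene at background on its probe may still be transcribed.

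**Figure D1:**
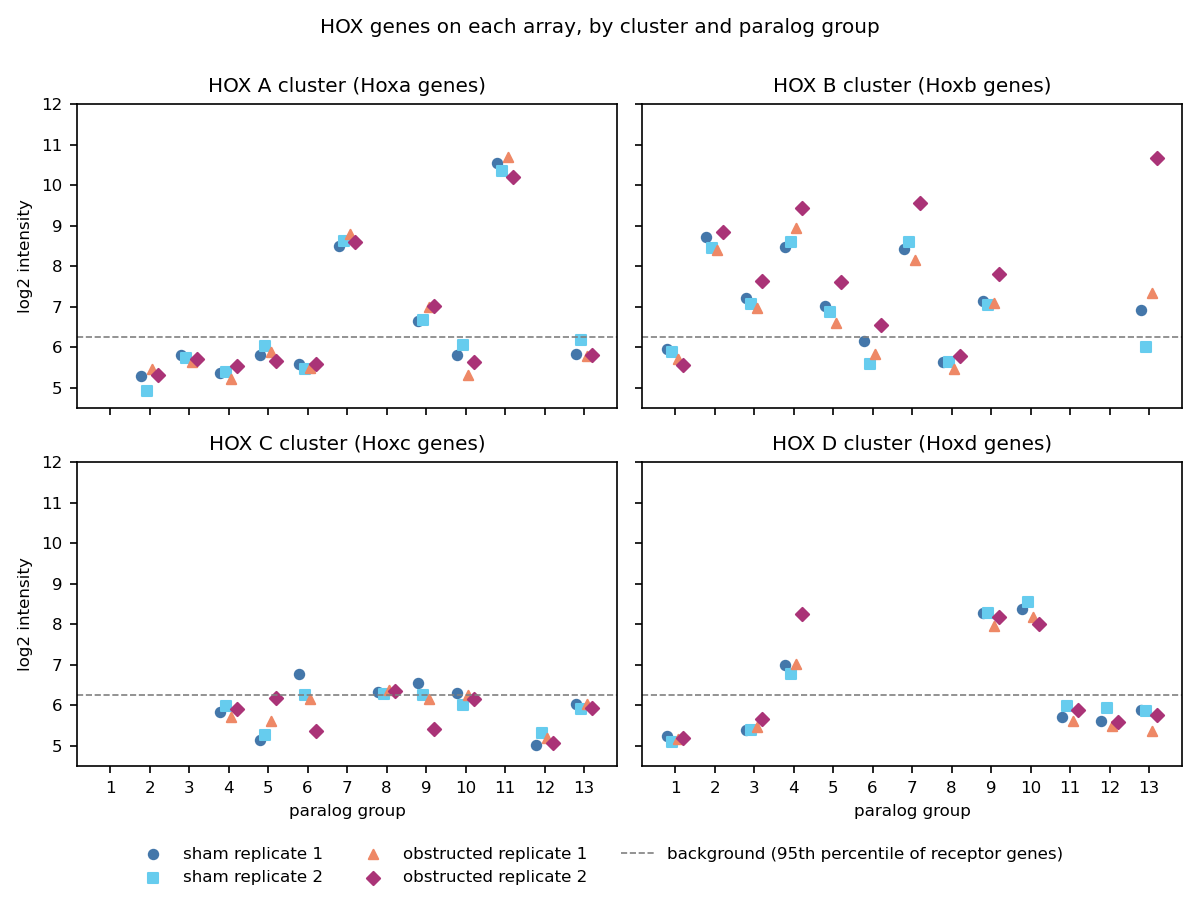
Log2 intensity of the 36 HOX genes on each of the 4 arrays, with 1 panel per cluster and the paralog group on the horizontal axis. The dashed line is the highest of the background levels of the 4 arrays, 6.26; Hoxa11 lies above 10 on every array, while Hoxb13 runs from 6.01 in sham replicate 2 to 10.67 in obstructed replicate 2.

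The genes above background were spread over all 4 clusters, and in paralog group 9 all 4 members were above it in sham. The A cluster, on chromosome 6 (GRCm38.p6, 52155367 to 52260880), had 3 of 10 measured genes above background, Hoxa7, Hoxa9 and Hoxa11. In the B cluster, on chromosome 11 (96194316 to 96368254), 6 of 10 were above it, Hoxb2, Hoxb3, Hoxb4, Hoxb5, Hoxb7 and Hoxb9. The C cluster, on chromosome 15 (102921131 to 103036856), had 3 of 8, Hoxc6, Hoxc8 and Hoxc9, none of them far above. The D cluster, on chromosome 2 (74668225 to 74765142), also had 3 of 8, Hoxd4, Hoxd9 and Hoxd10. Of paralog groups 1, 12 and 13, which hold 8 measured genes, 0 genes passed in both sham arrays. Hoxa13 measured 5.84 and 6.16 in sham and Hoxd13 5.88 and 5.85, each on its 1 probe, so that the genes best known from the embryonic urogenital sinus were not detectable above background here. At the level of the 99th percentile of the receptor genes 10 HOX genes remained, and Hoxa9, Hoxc6, Hoxc8, Hoxc9 and Hoxd4 did not. With the median of all probes as the level, 24 were counted.

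RefSeq promoters were available for 22 of the 39 HOX genes, as 24 windows from 250 bases before to 50 bases after the start of a transcript. Of the 24 windows, 11 had a GC content of at least 50% and at least 0.6 of the CpG dinucleotides their base composition predicts, the mark of a CpG island. That is 45.8%, compared with 33.5% of 32851 mouse promoter windows, and the median ratio of observed to predicted CpG was 0.626 and 0.384. The promoters below are those of Hoxa11, whose values were nearly equal in both groups, and of Hoxb4 and Hoxd4, paralogs whose values were higher in obstructed replicate 2. Each is the 250 bases before the RefSeq start, from 5′ to 3′ on the gene's strand, with CpG dinucleotides in capitals, taken from RefSeq on GRCm38.p6. Hoxa11 is chr6:52245811-52246060 on the minus strand, Hoxb4 is chr11:96318017-96318266 on the plus strand and Hoxd4 is chr2:74721728-74721977 on the plus strand.
Hoxa11: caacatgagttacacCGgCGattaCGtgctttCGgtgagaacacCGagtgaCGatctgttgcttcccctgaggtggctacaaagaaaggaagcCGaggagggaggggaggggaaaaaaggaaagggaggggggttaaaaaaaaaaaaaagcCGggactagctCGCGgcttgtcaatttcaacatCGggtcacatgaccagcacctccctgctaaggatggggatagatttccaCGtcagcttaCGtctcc
Hoxb4: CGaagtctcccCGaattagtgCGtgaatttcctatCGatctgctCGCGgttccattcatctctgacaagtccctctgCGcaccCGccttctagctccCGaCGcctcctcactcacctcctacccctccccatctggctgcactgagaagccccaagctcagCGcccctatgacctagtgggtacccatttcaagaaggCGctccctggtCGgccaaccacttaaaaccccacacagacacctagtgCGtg
Hoxd4: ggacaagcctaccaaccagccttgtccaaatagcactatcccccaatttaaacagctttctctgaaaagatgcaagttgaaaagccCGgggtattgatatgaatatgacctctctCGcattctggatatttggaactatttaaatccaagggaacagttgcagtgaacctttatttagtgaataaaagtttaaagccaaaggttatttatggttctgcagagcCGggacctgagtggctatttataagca
The stretch of Hoxa11 holds 13 CpG dinucleotides, that of Hoxb4 14 and that of Hoxd4 3, where the start is that of the whole Hoxd4 interval in RefSeq. Both strands of the 24 windows were searched for the letters of 4 known elements. The TATA box, TATAAA, was in 4 of 24 (16.7%, against 13.6% of all promoters), the CCAAT box, CCAAT, in 15 (62.5% against 37.4%), and the site of HOX proteins bound with PBX, TGATNNAT, in 4 (16.7% against 8.85%). The GATA site, AGATAA, was in 0 of 24 (11.2% of all promoters), which says only that these letters are not in these windows.

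After obstruction 0 of the 36 HOX genes passed the test across all genes (limma, Benjamini-Hochberg adjustment over 15366 genes), where 0.0521% of all genes were called, 0.026% higher and 0.026% lower. The smallest adjusted p among them was 0.473, for Hoxc5. At an unadjusted p below 0.05, 3 HOX genes were higher, Hoxb4, Hoxb13 and Hoxc5, and 2 lower, Hoxa10 and Hoxc6, which is 13.9% of the members where 8.14% of all genes passed, 3.05% higher and 5.09% lower. The groups did not overlap for 18 of the 36, 8 higher and 10 lower, where the same held for 39.2% of all genes, 17.6% higher and 21.6% lower. The median log2 difference, obstructed minus sham, was 0.02 over the HOX genes and -0.02 over all genes. For the 15 members above background in sham, the 95% interval of a difference reached 0.59 to either side of it at the median. Differences smaller than that were mostly not detectable with 2 arrays a group. The interval is not adjusted for the number of genes, and larger differences, such as 0.66 for Hoxb4 and 0.76 for Hoxd4, did not pass the test either.

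Over the 36 HOX genes the median gap between replicates was 0.15 in sham and 0.25 in obstructed bladders. Over all measured genes of each cluster, the median gap in obstructed bladders was widest in B. These medians take in genes at or below background on all 4 arrays, where gaps say little. Such genes were 7 of 10 in A, 2 of 10 in B, 4 of 8 in C and 5 of 8 in D. The median gap between replicates in the B cluster was 0.15 in sham and 0.69 in obstructed bladders. Over all genes it was 0.16 and 0.21, and over all genes above background in sham 0.17 and 0.27. In A the gaps were nearly level, at 0.17 and 0.18, in D they were 0.16 and 0.195, and in C the obstructed gap was the smaller, at 0.22 and 0.15. Of the C genes above background in sham, Hoxc6 and Hoxc9 had wide obstructed gaps, at 6.15 and 5.37 and at 6.16 and 5.43. Hoxc8 did not, at 6.38 and 6.35. In D, Hoxd4 measured 7.03 and 8.25 in obstructed bladders, while Hoxd9 and Hoxd10 had closer values. Relative to the sham mean, the 10 genes of the B cluster had a median of -0.17 in the first obstructed array, with 2 of 10 above 0. In the other obstructed array the median was 0.67, with 9 of 10 above 0. Without Hoxb13 these medians were -0.17 and 0.65. The A cluster, with medians of -0.04 and -0.01, the C cluster, with 0.04 and -0.02, and the D cluster, with -0.26 and -0.04, had medians nearer to 0 in obstructed replicate 2. When obstructed replicate 2 alone was set against the sham arrays, limma called 8 HOX genes at an adjusted p below 0.05, or 22.2% of them, where 8.45% of all genes were called, 3.38% higher and 5.08% lower. They were Hoxb4, Hoxb7, Hoxb9, Hoxb13, Hoxc5 and Hoxd4, higher, and Hoxc6 and Hoxc9, lower. With obstructed replicate 1 alone 0 HOX genes were called at the same threshold, where 2.1% of all genes were called. Such a fit takes the spread of the single array to be that of the sham pair, and describes that array rather than obstruction.

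**Figure D2:**
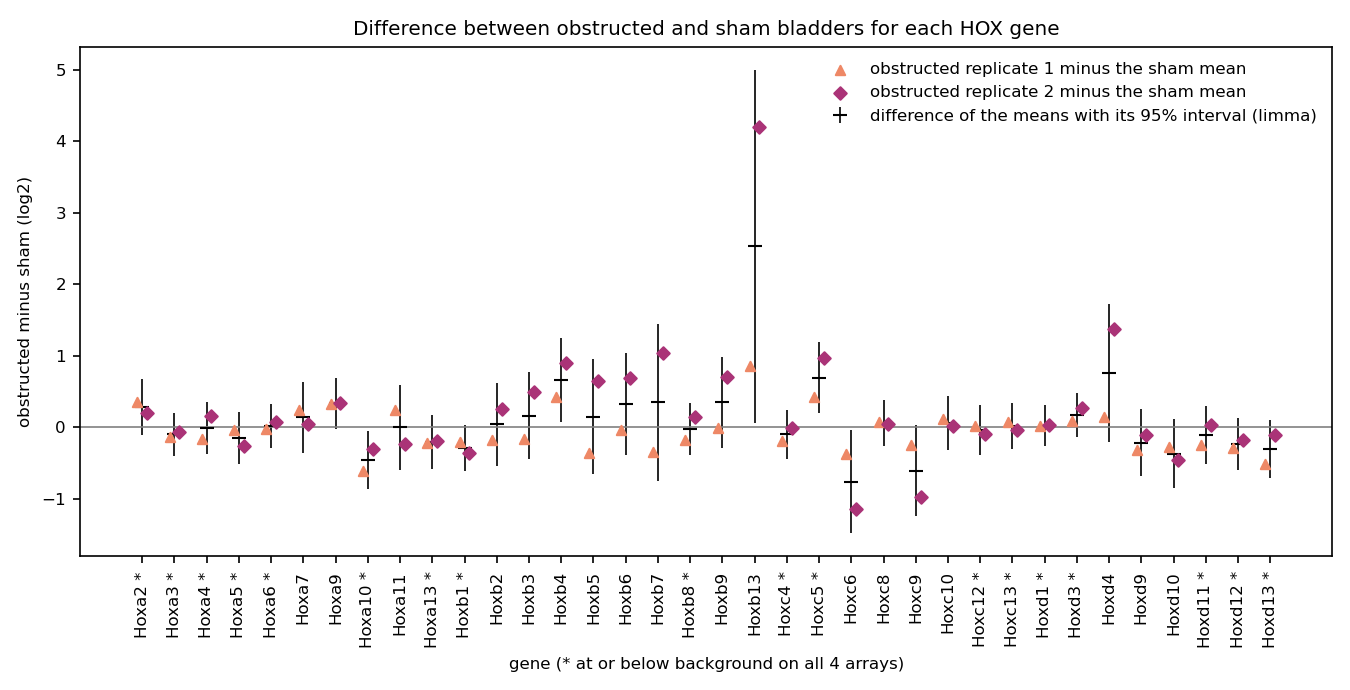
Log2 difference from sham for each HOX gene, ordered by cluster and paralog group, with the difference of the group means and its 95% interval from limma as bars and each obstructed array minus the sham mean as symbols. Hoxb13 in obstructed replicate 2 lies 4.20 above sham, and several other B cluster genes lie above 0 in that array and below 0 in obstructed replicate 1.

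Hoxb13, a tail-end gene that in adult mice marks prostate epithelium and distal colon, differed by more than any other member. On probe 4730152 its log2 intensity was 6.92 and 6.01 in sham bladders and 7.33 and 10.67 in obstructed ones. Sham replicate 2 was at background, sham replicate 1 and obstructed replicate 1 were above it, and obstructed replicate 2 was far above the rest. The difference was 2.53 (SE 1.01, 95% interval 0.06 to 4.996, limma adjusted p = 0.602), with obstructed replicate 1 at 0.86 and obstructed replicate 2 at 4.20 above the sham mean. Of the 14 measured gland genes, 14 were highest in obstructed replicate 2, and 7 had all 4 arrays in the order of Hoxb13, with sham replicate 2 lowest. No share of all genes with such an order was set beside these counts. Among those 7 were the secretory genes Sbp, at 11.91 and 5.89 in sham and 12.99 and 15.32 in obstructed, and Spink1, at 11.93 and 6.86 in sham and 13.72 and 14.92 in obstructed. Sbp and Spink1 were the only genes of those 7 above background in a sham array, so in the rest the order of the sham arrays says little. In the other 7 sham replicate 1 was below sham replicate 2, and nearly all of these were at background in both sham arrays too. Probasin, Pbsn, a secretory protein of the prostate, measured 4.91, 5.10 and 5.29 in the first 3 arrays and 11.81 in obstructed replicate 2. A second probe of Hoxb13, 105290022, lay at 5.32 and 5.14 in sham and 5.46 and 5.44 in obstructed bladders, at background on all 4 arrays.

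Hoxb4, known for enlarging the pool of blood stem cells when overexpressed, measured 8.46 and 8.60 in sham and 8.95 and 9.42 in obstructed bladders. Both obstructed arrays were above both sham arrays, with a difference of 0.66 (SE 0.24, 95% interval 0.07 to 1.24, limma adjusted p = 0.569). Hoxd4, its paralog in the D cluster and like it a gene of the hindbrain border, measured 6.9997 and 6.76 in sham and 7.03 and 8.25 in obstructed bladders. Its obstructed replicate 1 was barely above the higher sham array. The difference was 0.76 (SE 0.39, limma adjusted p = 0.691), with obstructed replicate 1 at 0.15 and obstructed replicate 2 at 1.37 above the sham mean. Hoxa4 and Hoxc4, the other members of paralog group 4, were at background on all arrays and differed by -0.01 and -0.10. In RefSeq, Hoxb4 lies wholly within the interval of Hoxb3 and Hoxd4 within that of Hoxd3, so a probe of one may read transcripts of the other. Hoxd3 was at background throughout, between 5.38 and 5.65.

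In several B cluster genes the obstructed arrays lay on either side of sham. Hoxb7, a gene of the trunk whose promoter is widely used to mark the ureteric bud, measured 8.43 and 8.59 in sham, 8.16 in obstructed replicate 1 and 9.56 in obstructed replicate 2. Obstructed replicate 1 was below and obstructed replicate 2 above both sham arrays, so the difference of 0.35 (SE 0.45, 95% interval -0.75 to 1.44, adjusted p = 0.879 by limma) has an interval that spans 0 widely. Hoxb5, which acts in enteric neural crest, measured 7.03 and 6.87 in sham and 6.59 and 7.60 in obstructed bladders. Hoxb3 measured 7.20 and 7.06 in sham and 6.97 and 7.63 in obstructed bladders, and Hoxb2, a gene of hindbrain segments, 8.71 and 8.45 in sham and 8.41 and 8.84 in obstructed ones. For all 3 genes one obstructed array was below and the other above both sham arrays, and the differences were 0.15, 0.16 and 0.04. Hoxb9, which patterns thoracic ribs, was at 7.15 and 7.03 in sham and 7.08 and 7.79 in obstructed bladders, where obstructed replicate 1 was between the sham arrays. Hoxb6 was above background in obstructed replicate 2 alone, at 6.55, and between 5.59 and 6.15 in the other arrays. Hoxb8, at 5.45 to 5.77, and Hoxb1, at 5.56 to 5.96, were at background on all 4 arrays. The second probes of Hoxb3 and Hoxb7 were at background too, with differences of 0.18 and -0.38.

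**Figure D3:**
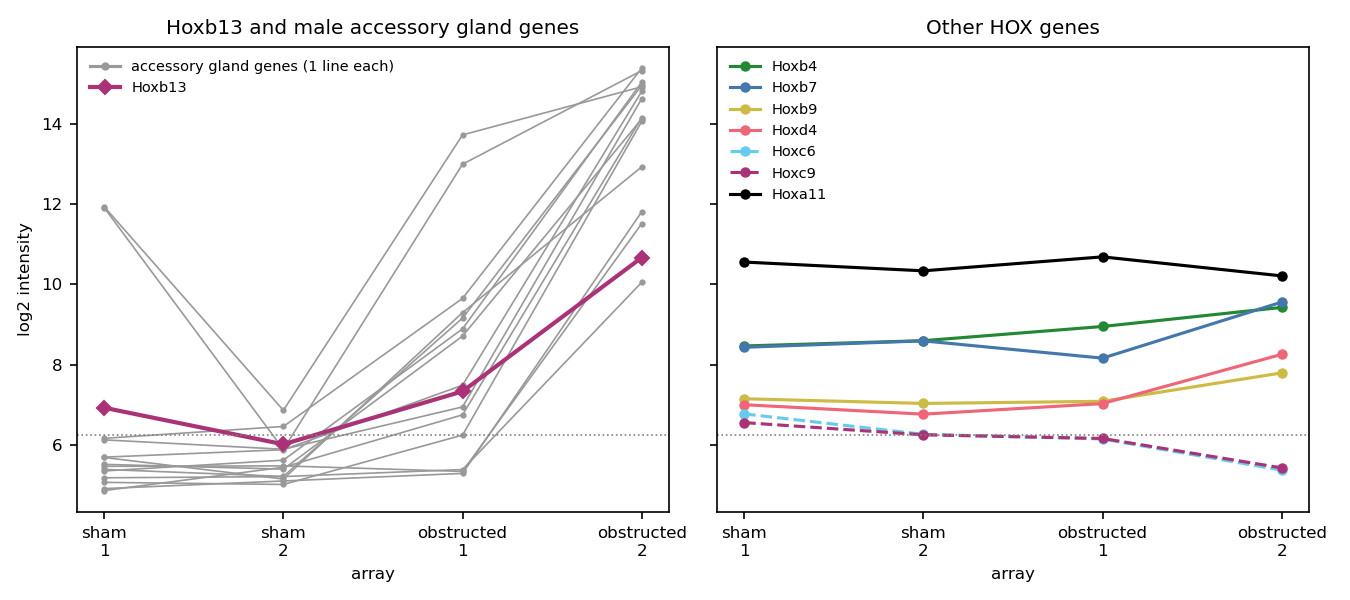
Log2 intensity on the 4 arrays of Hoxb13 with the 14 measured accessory gland genes (left) and of 7 other HOX genes (right). Lines join the values of 1 gene and imply no order of the replicates, and the dotted line is the background of 6.26; Hoxb13 and the gland genes are highest in obstructed replicate 2, where Hoxb7, Hoxb9 and Hoxd4 are also highest and Hoxc6 and Hoxc9 lowest.

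A pair of C cluster genes that lay just above background in sham, Hoxc6 and Hoxc9, were lowest in obstructed replicate 2. Hoxc6, a thoracic gene, measured 6.77 and 6.26 in sham and 6.15 and 5.37 in obstructed bladders. The groups did not overlap, with a difference of -0.76 (SE 0.30, 95% interval -1.48 to -0.04, limma adjusted p = 0.597), and neither obstructed array was above background. Hoxc9, which sets the identity of thoracic motor neurons, measured 6.55 and 6.25 in sham and 6.16 and 5.43 in obstructed bladders, a difference of -0.61 (SE 0.26, adjusted p = 0.638 by limma). A dimmer probe of Hoxc6 lay between 5.91 and 5.98 on all arrays and differed by -0.03. Markers of adipocytes, skeletal muscle and mesothelium, cells that adhere to or line the outside of the organ, had medians of -1.22, -1.70 and -1.30 in obstructed replicate 2. In obstructed replicate 1 the medians were -1.001, -0.87 and -0.25. Of 5, 5 and 4 measured markers, 0 had a higher mean in obstructed bladders. Plin1 and Fabp4 of the adipocyte markers and Myl1 of the skeletal muscle markers were at background on all 4 arrays. Some other cell types were also lower in obstructed replicate 2. Medians were -1.63 for 2 Schwann cell and nerve markers, -1.54 for 3 erythrocyte markers, -1.22 for smooth muscle and -0.64 for fibroblasts. Endothelium and leukocyte markers had medians of -0.32 and -0.34 in that array, and urothelium markers 0.05. The part of any of these in the Hoxc6 and Hoxc9 values was not tested. Hoxc5 measured 5.14 and 5.28 in sham and 5.62 and 6.18 in obstructed bladders, all 4 values below the background level. Hoxc8, which acts at the level of the forelimb, was nearly level at 6.33 and 6.28 in sham and 6.38 and 6.35 in obstructed bladders. Hoxc10, a hindlimb-level gene, lay at 6.01 to 6.30, and Hoxc4, Hoxc12 and Hoxc13, the last a gene of hair follicles, lay between 5.02 and 6.04.

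The remaining genes above background, in the A and D clusters, had differences between -0.37 and 0.33. Hoxa11, which patterns the forearm, kidney and uterus, measured 10.55 and 10.34 in sham and 10.68 and 10.21 in obstructed bladders. Its sham arrays lay between its obstructed arrays, and the difference was 0.00 (SE 0.24, 95% interval -0.59 to 0.59). Hoxd10, a gene of lumbar motor neurons and hindlimb, measured 8.38 and 8.55 in sham and 8.19 and 8.01 in obstructed bladders. The groups did not overlap, and the difference was -0.37 (SE 0.20, limma adjusted p = 0.702). Hoxd9, its neighbour, measured 8.28 in both sham arrays and 7.96 and 8.17 in the obstructed ones, a difference of -0.22 (SE 0.19). Hoxa9, a gene of blood progenitors and of the caudal trunk, measured 6.64 and 6.67 in sham and 6.98 and 7.01 in obstructed bladders. The replicates of each group were close and the groups were apart, with a difference of 0.33 (SE 0.15, 95% interval -0.02 to 0.69, adjusted p = 0.642 by limma), and dimmer probes of Hoxa9 at background differed by 0.20 and -0.02. Hoxa7, a trunk gene, had 2 probes well above background that disagreed in sign. Its brighter probe measured 8.50 and 8.63 in sham and 8.80 and 8.61 in obstructed bladders, a difference of 0.14, and the other 8.51 and 8.55 in sham and 8.35 and 8.14 in obstructed bladders, a difference of -0.28.

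The other members were at background on all arrays, where values say little. Hoxa10, a gene of the uterus and lumbar vertebrae, had the lowest adjusted p of the A cluster, 0.555, with 5.81 and 6.06 in sham and 5.32 and 5.63 in obstructed bladders and a difference of -0.46. Hoxa13 and Hoxd13 differed by -0.21 and -0.31, Hoxd12 by -0.23 and Hoxd11 by -0.11. At the anterior end Hoxa2, which patterns the second pharyngeal arch, differed by 0.28, Hoxd1 by 0.03 and Hoxd3 by 0.18. Hoxa3, Hoxa5, which acts in lung, and Hoxa6 differed by -0.10, -0.15 and 0.02. A dimmer probe of Hoxa3, also at background, went the other way, at 0.37, and a dimmer probe of Hoxa10 differed by -0.165.

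HOX proteins bind DNA together with partners of the TALE homeodomain class, the PBX, MEIS and PKNOX proteins. Of these genes 7 were analysed here. Over all genes 0 of the 7 passed (limma), 1 was lower and 0 higher at an unadjusted p below 0.05 (5.09% and 3.05% of all genes), and the median difference was -0.08. That median was -0.29 without sham replicate 2, -0.19 without sham replicate 1, -0.24 without obstructed replicate 1 and 0.0035 without obstructed replicate 2. Meis2 measured 10.09 and 10.33 in sham and 9.58 and 9.54 in obstructed bladders, a difference of -0.65 (SE 0.21, limma adjusted p = 0.505). Meis1 measured 11.15 and 11.19 in sham and 10.87 and 10.43 in obstructed bladders, a difference of -0.52 (SE 0.22), and Pbx3 8.33 and 8.40 against 8.13 and 7.81, a difference of -0.39. In these 3 of the 7 genes both obstructed arrays lay below both sham arrays, as in 21.6% of all genes. Smooth muscle markers were also lower in mean in 6 of 8, with a median of -0.24 in the first obstructed array and -1.22 in the other, and their part in the cofactor values was not tested. Pbx2, Pknox1 and Meis3 differed by -0.02, -0.08 and -0.08, and Pknox2, at background on all arrays, by 0.12.

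**Figure D4:**
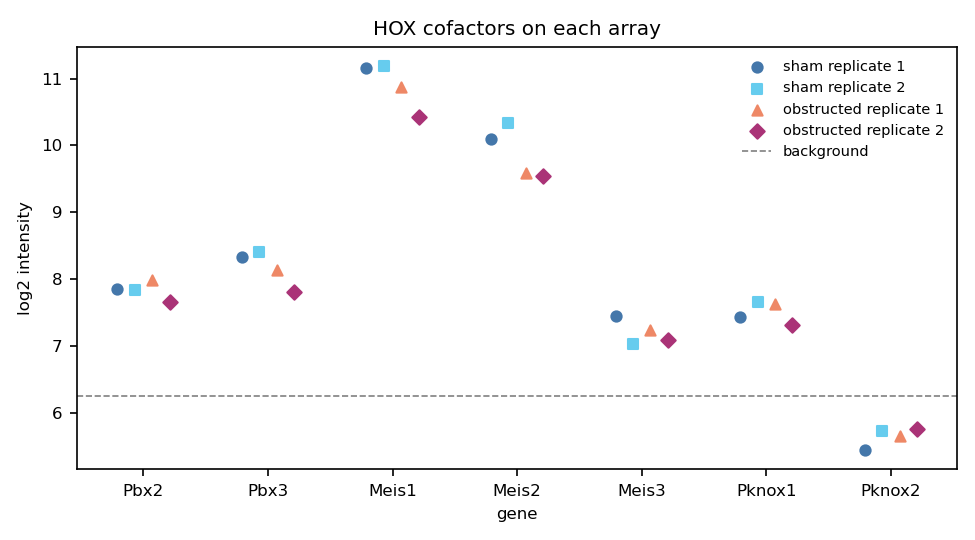
Log2 intensity of the 7 measured HOX cofactors on the 4 arrays, with the background of 6.26 as a dashed line. Both obstructed arrays lie below both sham arrays for Meis1, Meis2 and Pbx3, and the groups overlap for the other 4.

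Among the genes that set and keep HOX transcription, 0 passed over all genes in any list by limma. At an unadjusted p below 0.05, the threshold of the counts that follow, 3.05% of all genes were higher and 5.09% lower. Of 18 Polycomb genes, which silence HOX clusters, 1 was lower at an unadjusted p below 0.05, Rybp (-0.64). Ezh2, the catalytic subunit, differed by 0.44, Cbx7 by -0.35 and Ring1, at background on all arrays, by -0.24. A median of -0.05 held over the Polycomb genes. Of 7 Trithorax genes and H3K27 demethylases, which oppose them, 1 was higher, Kdm6a, which removes the Polycomb mark, at 0.59 (8.31 and 8.39 in sham, 8.97 and 8.91 in obstructed, limma adjusted p = 0.517), with Men1 at 0.30, Psip1 at -0.35, Ash2l at -0.13 and a list median of -0.07. Retinoic acid is the classical inducer of HOX genes, from the anterior end of a cluster onwards. Of 16 genes of its pathway 1 was higher, the binding protein Crabp1, at 6.25 and 6.22 in sham and 6.84 and 8.84 in obstructed bladders, so that obstructed replicate 2 stood apart again. Its receptors Rxra, Rxrb and Rarb differed by 0.23, -0.30 and -0.20, and the list median was -0.03. Of 13 ParaHox and HOX-linked homeobox genes 0 passed at either threshold, the smallest p belonging to Gsx1 (0.36), En1 (-0.21), Evx2 (0.13) and Cdx4 (0.13), all at background, and the median was 0.08.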

How the data were processed

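Total RNA of bladder was extracted with TRIzol and hybridised as biotinylated cRNA to Illumina arrays, per the labels' protocols. The deposited table, as the authors left it, holds 1 value per probe and array, taken as log2 intensity because the values run from 4.14 to 15.63. The 4 columns hold nearly the same sorted values (largest difference 0.0252), as quantile normalization leaves them. No source used here states how background was corrected or probes filtered.

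Of 46657 probes 22380 had 1 gene symbol, 0 several and 24277 none. Each of 15366 genes was read at its brightest probe (mean of 4 arrays). Obstructed was compared with sham by limma 3.58.1 (R 4.3.3, lmFit and eBayes with trend), two-sided, with Benjamini-Hochberg adjustment over all genes and a threshold of 0.05. No dim probe was left out. Standard errors rest on 6.04 degrees of freedom, those of the 4 arrays together with those that the moderation by limma draws from all genes. The number of arrays limits the precision. The scripts were tested on simulated data. Figures were made in Python 3.11.15 with matplotlib 3.10.9.

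All HOX genes were named, with every measured TALE cofactor and at most 4 genes, those of smallest p, from every other list. The members and lists were chosen with earlier results of these data known. Alternatives were the mean of all probes, a filter on dim genes, centring, quantile normalization, a floor of 50, fits without the trend or moderation, the replicate block, each array left out, each probe alone, and other background levels.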

Additional observations from a re-analysis of the deposited data

How the results depend on the processing

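By limma, 0 HOX genes were called, higher or lower, under every alternative tried except without obstructed replicate 1. Leaving out 1 array gave 0 to 6 HOX genes higher and 0 to 2 lower, 0 to 1 gene higher and 0 to 5 lower among the other lists, and 0 to 519 genes higher and 0 to 780 lower over all genes. The highest counts were those without obstructed replicate 1, and without obstructed replicate 2 there were 154 higher and 169 lower. Over all genes, 4 higher and 4 lower became 2 and 1 with dim genes removed, 0 and 0 with a floor of 50 or with an unmoderated fit, and 2 higher without the trend, with 490 and 759, 463 and 598, and 486 and 811 at p below 0.05 unadjusted in the last 3. With the replicate block there were 0 higher and 1 lower. Before adjustment (p below 0.05) that fit had 3 of 36 HOX genes higher and 3 lower, beside 440 and 765 of all 15366 genes. Deviations of arrays with the same replicate number correlated at -0.017, so the numbers were not taken as pairs. The median HOX difference ran from -0.091 (without obstructed replicate 2) to 0.0839 over arrays left out, its main value being 0.02. The number of HOX genes above background in sham was 24 with the median of all probes as the level, 10 with the 99th percentile, 11 with the mean of all probes, and 15 to 17 with 1 sham array alone. Averaging all probes turned the sign of Hoxa7 (-0.071), Hoxb7 (-0.0183) and Hoxc8 (-0.0082). Leaving out 1 array moved Hoxa11 between -0.24 and 0.24, Hoxb2 between -0.17 and 0.26, Hoxb3 between -0.17 and 0.50, Hoxb5 between -0.36 and 0.65, Hoxb6 between -0.0346 and 0.69, Hoxb7 between -0.35 and 1.05, Hoxb9 between -0.0052 and 0.70, and Hoxc10 between -0.0841 and 0.21. The list medians moved too: over arrays left out, that of the TALE cofactors ran from -0.2869 to 0.0035 (-0.2352 with dim genes removed), ParaHox from 0.0449 to 0.0961 (-0.0034), Polycomb from -0.1414 to -0.0493 (-0.0184), Trithorax from -0.1067 to 0.0255, retinoic acid from -0.1193 to 0.0288 (-0.015), bladder mesenchyme from -0.1621 to 0.0169 (-0.247), and limb targets from -0.1807 to 0.212 (-0.0113). The cause was not tested. Intensities near the background limit what can be said of the other members.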

Other observations

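The 5 nearest protein-coding RefSeq genes on each side of each cluster gave 40 genes, of which 36 were measured. Several belong to families with a member beside each of several clusters, such as the ATP synthase subunit genes Atp5g1, Atp5g2 and Atp5g3 and the Nfe2 transcription factors. Over all genes 0 of the 36 passed (limma), with a median difference of -0.05. Before adjustment (p below 0.05) 1 was higher and 3 were lower, where 3.05% of all genes were higher and 5.09% lower. These were Snf8 (0.57), a subunit of the endosomal sorting complex beside the B cluster, and Jazf1 (-0.50), Creb5 (-0.74) and Nfe2 (-0.30). Nfe2 was at background on all arrays, at 5.12 to 5.45. The 36 had a median of -0.15 in the first obstructed array and 0.01 in the other.

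Of 20 genes that pattern the bladder mesenchyme, many of them in the hedgehog pathway, 0 passed over all genes (limma), with a list median of -0.06. Before adjustment (p below 0.05) 1 was higher and 2 were lower, beside 3.05% and 5.09% of all genes. Tshz3, which mouse ureter muscle needs to differentiate, measured 9.29 and 9.80 in sham and 8.77 and 8.46 in obstructed bladders, a difference of -0.93 (SE 0.26, limma adjusted p = 0.459). Isl1 measured 7.54 and 7.80 in sham and 6.96 and 7.18 in obstructed bladders, a difference of -0.60. In both genes the obstructed arrays lay below the sham arrays, as in 21.6% of all genes. Gli1 and Dhh, at background on all arrays, differed by 0.31 and -0.31. Of 5 measured genes reported as targets of HOXA13 or HOXD13 in mouse limb, 0 passed at either threshold, with Bmp7 at 0.42, Epha3 at -0.18, Epha7 at -0.06 and Bmp2 at -0.04. Epha7 and Bmp2 were at background on all arrays.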
